A study of Mus musculus with 15 samples.

Results

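The 10 genes described here are known from endothelial cells, the cells that line blood vessels. They are Cdh5, Emcn, Cd34, Eng, Cd93, Ptprb, Tek, Robo4, Erg and Ramp2, taken by symbol from the 19500 genes to which the platform's annotation gives a probe set of their own. Each gene had 1 probe set, so no choice between probe sets was needed. The RNA came from the cerebellum of Tg(Pcp2-L10a-Egfp) mice, in which the Purkinje cell promoter of Pcp2 drives the ribosomal protein L10a joined to a green fluorescent protein. Tagged ribosomes were pulled from homogenates of pooled cerebella with antibodies to the fluorescent protein (translating ribosome affinity purification), and their RNA was hybridised to 1 array per sample. There were 3 arrays at each of 5 ages, P0, P7, P15, P21 and P56 (days after birth), all from mice with this transgene. The labels give no strain, no sex, no number of animals per pool and no drug treatment. RNA of the unpurified tissue and of mice without the transgene was not analysed here, and the values are therefore levels and not enrichments over tissue.

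Endothelial cells of the brain are held together by adherens junctions built on VE-cadherin and by tight junctions, which together form the blood-brain barrier. Their growth and quiescence are governed by receptors for vascular endothelial growth factor, for angiopoietins and for bone morphogenetic proteins, and many of their genes are controlled by ETS transcription factors such as ERG. In rodents the vessels of the cerebellum keep growing after birth, while the cerebellar cortex expands. None of the 10 genes is known as a marker of Purkinje cells. Of the 21 measured genes of the Purkinje cell list, 20 rose between P0 and P7. The list mean lay at 9.18 to 9.22 on the P0 arrays, 12.52 to 12.53 on the P7 arrays and 12.62 to 12.65 on the P56 arrays.

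All values are log2 signals as deposited, so a difference of 1 is a 2-fold difference. Array medians ran from 7.91 to 7.93 at P0, from 7.85 to 7.87 at P7, from 7.77 to 7.81 at P15, from 7.82 to 7.85 at P21 and from 7.59 to 7.60 at P56. Setting every array median to 0 moved the median change of all probe sets between P0 and P56 from 0.085 to 0.41. The lower quartile of the arrays lay between 5.86 and 6.01, and a lower signal than that may be background. Arrays of the same age correlated over all probe sets at 0.994 to 0.999. Changes were tested with limma on all 15 arrays, and a gene was called at a Benjamini-Hochberg adjusted p under 0.05 over all 22092 probe sets. The labels list the 3 arrays of each age as separate samples without tying them to separate animals, and p-values then cover only the spread among these samples, which may be technical.

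All 10 endothelial genes fell in the first postnatal week. The mean over the 10 genes lay between 8.93 and 8.97 on the P0 arrays and between 6.89 and 6.93 on the P7 arrays. It then lay between 6.76 and 6.86 at P15, between 6.71 and 6.78 at P21 and between 6.35 and 6.40 at P56. The drop from P0 to P7 was therefore far wider than the spread of the arrays within any age. The median change of the 10 genes between P0 and P7 was −2.13, in a range from −3.24 for Cdh5 to −0.68 for Ramp2, while the median of all probe sets was 0.051. For comparison, 28.5% of all probe sets were called lower at P7 and 33.6% higher. In all 10 genes the P0 and P7 arrays did not overlap, as was the case in this direction for 32.5% of all probe sets. The RNA was pulled down from pooled tissue on ribosomes tagged in Purkinje cells. Fewer cells of a type, less RNA per cell and a smaller carried-over share of RNA from untagged cells cannot be told apart here.

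**Figure D1:**
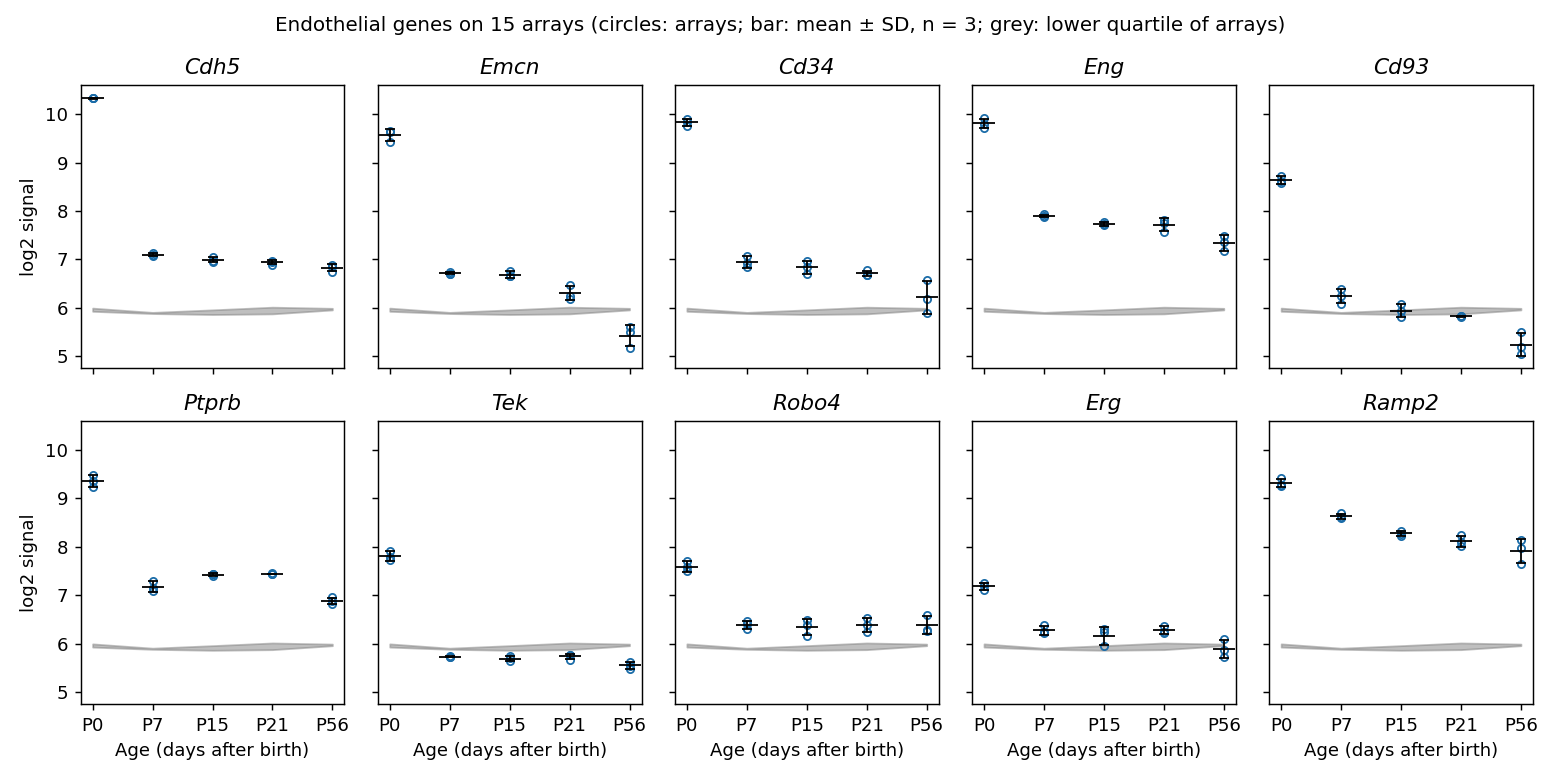
Log2 signal of the 10 endothelial genes (vertical axis) on each of 15 arrays, by age (horizontal axis). Circles are arrays, bars are the mean ± SD of 3 arrays, and the grey band is the range of the arrays' lower quartile; every gene is highest at P0, and Tek lies under the band from P7 onward.

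The largest fall of the first week was that of Cdh5, which encodes VE-cadherin, the adhesion protein of endothelial adherens junctions. Its signal was 10.34, 10.33 and 10.33 on the P0 arrays and 7.13, 7.07 and 7.09 on the P7 arrays. Later arrays stayed close to the P7 level, with P15 arrays between 6.96 and 7.06, P21 arrays between 6.89 and 6.98 and P56 arrays between 6.75 and 6.90. The P0 arrays thus stood apart from all 12 later ones. The change from P0 to P7 was −3.24 (SE 0.061, limma adjusted p 5.57e-17), a 9.43-fold lower signal. Cdh5 showed no called change in any later step, although P56 was lower than P7 by a called −0.26 (adjusted p 0.0013), a difference that vanished when array medians were set to 0 (−0.0002, adjusted p 0.998).

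Emcn encodes endomucin, a sialylated surface protein of capillary and venous endothelium. Its P0 arrays read 9.66, 9.43 and 9.63, and its P7 arrays 6.75, 6.70 and 6.71. It had the largest change from P7 to P56 of the 10 genes (−1.29), with 6.76, 6.65 and 6.65 on the P15 arrays, 6.24, 6.19 and 6.47 on the P21 arrays and 5.18, 5.60 and 5.50 on the P56 arrays. No array of P21 overlapped with those of P15, and none of P56 with those of P21. The first step was −2.86 (SE 0.10, adjusted p 8.69e-14), the step from P15 to P21 was −0.39 (adjusted p 0.0129), and the step from P21 to P56 was −0.88 (adjusted p 1.04e-06). The call between P15 and P21 was lost without P15 replicate 1 (−0.35, adjusted p 0.0570) or P21 replicate 2 (−0.33, adjusted p 0.0565). Because all P56 arrays lay below the lower quartile, the full fall of Emcn to P56, 17.7-fold, is uncertain in size.

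Cd34 encodes a sialomucin of endothelial cells and blood progenitors, and fibroblasts are known to carry it as well. Signals were 9.84, 9.90 and 9.75 at P0, 6.84, 7.07 and 6.93 at P7, 6.85, 6.70 and 6.96 at P15 and 6.68, 6.78 and 6.67 at P21. The P56 arrays spread most widely, with 6.57, 6.18 and 5.90, and 1 of them lay below the lower quartile. Cd34 fell by 2.89 in the first week (SE 0.12, adjusted p 9.91e-13) and by 0.49 between P21 and P56 (adjusted p 0.0025). The later change was −0.26 and no longer called when array medians were set to 0 (adjusted p 0.0678).

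Cd93 encodes a C-type lectin-like receptor of endothelial cells that is also found on monocytes. It was at 8.73, 8.63 and 8.57 at P0 and at 6.38, 6.25 and 6.09 at P7. The P15 arrays followed with 5.82, 5.93 and 6.09, the P21 arrays with 5.83, 5.84 and 5.81, and the P56 arrays with 5.20, 5.04 and 5.49. All P21 and P56 arrays were below the lower quartile, so the later decline was read near the floor of the array. Its changes were −2.40 in the first week (SE 0.10, adjusted p 1.16e-12), −0.30 from P7 to P15 (adjusted p 0.0483) and −0.58 from P21 to P56 (adjusted p 1.32e-04). The call at P15 was borderline and ended with array medians set to 0 (−0.23, adjusted p 0.139), a trended and robust prior (adjusted p 0.0518) or a replicate block (adjusted p 0.0624). It also ended without any of P0 replicate 1, 2 or 3, P7 replicate 1 or 2, P15 replicate 1 or 2, P21 replicate 1, 2 or 3 or P56 replicate 1, where the adjusted p lay between 0.0503 and 0.217.

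Among the receptors and their regulators, Tek, Ptprb and Eng changed by −2.08, −2.19 and −1.91 in the first week. The differences between these genes were not tested. Tek encodes TIE2, the receptor of angiopoietins, and its signals were 7.73, 7.79 and 7.92 at P0 and 5.73, 5.72 and 5.75 at P7. The 12 arrays from P7 onward ran from 5.49 to 5.78 and all lay below the lower quartile of their arrays. Tek changed by −2.08 in the first week (SE 0.068, adjusted p 3.01e-14), to a level that may be background. It changed by −0.18 from P21 to P56 (adjusted p 0.0287), a call lost with array weights (adjusted p 0.128) or a trended and robust prior (adjusted p 0.0607) and turned to 0.051 with array medians set to 0. It was also lost without P21 replicate 2 (adjusted p 0.0704), P21 replicate 3 (0.0814), P56 replicate 1 (0.0539) or P56 replicate 2 (0.0917).

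Ptprb encodes VE-PTP, a phosphatase that acts on TIE2 and on VE-cadherin. Its P0 arrays read 9.25, 9.36 and 9.49, and its P7 arrays 7.08, 7.30 and 7.15. Unlike the other 9 genes, it was called higher at the next age, with 7.39, 7.44 and 7.44 at P15. It was at 7.43, 7.44 and 7.45 at P21 and at 6.96, 6.82 and 6.88 at P56, where all arrays were again lower than those of P21. The steps were −2.19 (SE 0.074, adjusted p 5.12e-14), 0.25 (SE 0.074, adjusted p 0.0224), 0.017 (adjusted p 0.928) and −0.56 (adjusted p 5.98e-06). The rise at P15 was no longer called without P7 replicate 1 (0.20, adjusted p 0.121), P7 replicate 3 (0.23, adjusted p 0.0810), P15 replicate 2 (0.24, adjusted p 0.0645) or P15 replicate 3 (0.24, adjusted p 0.0647).

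Eng encodes endoglin, a co-receptor for bone morphogenetic proteins that acts with the receptor ALK1. It read 9.92, 9.80 and 9.72 at P0 and 7.93, 7.90 and 7.87 at P7. Later levels were 7.78, 7.72 and 7.71 at P15, 7.76, 7.56 and 7.82 at P21 and 7.17, 7.36 and 7.49 at P56. All 15 arrays were above the lower quartile. Eng fell by 1.91 in the first week (SE 0.086, adjusted p 1.87e-12) and by 0.38 from P21 to P56 (adjusted p 0.0012). The last step was no longer called with quantile normalization (−0.18, adjusted p 0.0992) or array medians set to 0 (−0.14, adjusted p 0.149).

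Robo4 is the endothelial member of the roundabout receptors, and its P0 arrays lay below the array median but above the lower quartile. The arrays read 7.58, 7.70 and 7.49 at P0 and 6.30, 6.40 and 6.47 at P7. From P15 to P56 they ran from 6.17 to 6.59, inside or near the range at P7. Robo4 fell by 1.20 in the first week (SE 0.10, adjusted p 1.24e-08) and was the only 1 of the 10 genes not called between P7 and P56 (−0.0043, SE 0.10, adjusted p 0.975). It was called higher at P56 than at P7 when array medians were set to 0 (0.26, adjusted p 0.0348).

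Ramp2 encodes a single-pass membrane protein that turns the calcitonin receptor-like receptor into a receptor for adrenomedullin. Its arrays read 9.42, 9.26 and 9.27 at P0, 8.69, 8.62 and 8.59 at P7 and 8.23, 8.27 and 8.33 at P15. They read 8.09, 8.02 and 8.24 at P21 and 8.14, 7.98 and 7.65 at P56, and the last 2 ages overlapped. Ramp2 fell by 0.68 in the first week (SE 0.099, adjusted p 8.96e-06) and by 0.36 in the next step (SE 0.099, adjusted p 0.0141). The second call was lost with quantile normalization (−0.29, adjusted p 0.0530), without P7 replicate 1 (−0.33, adjusted p 0.0616) or without P15 replicate 1 (−0.33, adjusted p 0.0516). Ramp2 was not called between P21 and P56 (−0.19, adjusted p 0.106), but it was without P56 replicate 1 (−0.30, adjusted p 0.0128).

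Erg, the transcription factor among the 10 genes, belongs to the ETS family and is known to drive the expression of Cdh5 and other endothelial genes. Its signals were 7.25, 7.20 and 7.10 at P0, 6.38, 6.24 and 6.22 at P7, 5.95, 6.30 and 6.24 at P15, 6.25, 6.37 and 6.22 at P21 and 6.09, 5.88 and 5.72 at P56. The P0 arrays stood above all others, and 2 of the P56 arrays lay below the lower quartile. Erg fell by 0.91 in the first week (SE 0.10, adjusted p 3.07e-07) and by 0.39 from P21 to P56 (adjusted p 0.0031), a later call that ended with array medians set to 0 (−0.15, adjusted p 0.195).

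Since the 10 genes fell together and include an ETS factor, the 250 bases before the annotated start were searched for an ETS-type motif, CNGGAAG on either strand. RefSeq windows (GRCm38.p6) were matched for 6 of the 10 genes, in 8 windows, of which 3 belong to Erg. The motif was found in 4 of the 8 windows, from Emcn, Cd34, Robo4 and the third Erg window, against 26.6% of 32851 such windows of all genes. Its core GGAA, which the longer motif contains, was found in 7 of the 8 windows and in 93.4% of all windows. A match is a description of these letters and not a binding site. The 4 windows in which the search found the motif are shown in the direction of the gene, with the matched letters in capitals. All 4 matches read CAGGAAG, and the 3 in Emcn, Cd34 and Erg lie on the opposite strand and appear as CTTCCTG. They begin 174, 142, 50 and 40 bases before the start of Emcn, Cd34, Robo4 and Erg. The positions are chr3:137340828-137341077, plus strand for Emcn, chr1:194938571-194938820, plus strand for Cd34, chr9:37401722-37401971, plus strand for Robo4 and chr16:95459349-95459598, minus strand for Erg.
Emcn: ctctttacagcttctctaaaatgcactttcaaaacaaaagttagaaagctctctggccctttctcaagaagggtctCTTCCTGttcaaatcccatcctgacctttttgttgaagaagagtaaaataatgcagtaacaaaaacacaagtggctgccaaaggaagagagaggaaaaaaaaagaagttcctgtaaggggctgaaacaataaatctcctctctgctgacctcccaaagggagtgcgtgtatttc
Cd34: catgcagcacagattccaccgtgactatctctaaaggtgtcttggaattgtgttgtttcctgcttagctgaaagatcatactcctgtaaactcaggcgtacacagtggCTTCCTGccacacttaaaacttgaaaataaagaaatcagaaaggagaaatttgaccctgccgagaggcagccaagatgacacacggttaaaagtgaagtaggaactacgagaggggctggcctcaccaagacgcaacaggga
Robo4: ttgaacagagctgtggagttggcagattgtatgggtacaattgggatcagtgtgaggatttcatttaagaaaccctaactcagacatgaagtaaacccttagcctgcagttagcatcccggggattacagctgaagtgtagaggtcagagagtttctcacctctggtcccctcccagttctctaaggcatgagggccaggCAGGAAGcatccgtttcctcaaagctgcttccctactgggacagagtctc
Erg: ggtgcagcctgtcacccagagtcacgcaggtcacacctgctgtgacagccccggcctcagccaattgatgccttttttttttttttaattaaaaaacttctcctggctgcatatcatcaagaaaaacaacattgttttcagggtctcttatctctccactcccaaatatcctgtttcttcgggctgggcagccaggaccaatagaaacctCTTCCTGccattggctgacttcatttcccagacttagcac

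The windows of Eng and Tek held no CNGGAAG and held 3 and 2 copies of GGAA. In the first week Emcn and Cd34 changed by −2.86 and −2.89, Robo4 and Erg by −1.20 and −0.91, and Eng and Tek by −1.91 and −2.08. Whether genes with and without the motif differed in their change was not tested, and 6 genes are too few to tell. Windows 1 and 2 of Erg held no CNGGAAG, and Cdh5, Cd93, Ptprb and Ramp2 had no window to search.

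The 4 steps of the series differed in how many of the 10 genes moved. From P7 to P15, Cd93 and Ramp2 were called lower and Ptprb higher, against 13.6% of all probe sets called lower and 10.4% higher. Arrays of these ages did not overlap for Cdh5, Eng and Ramp2 (lower at P15; 23.2% of all probe sets) and for Ptprb (higher; 21.8%). From P15 to P21, Emcn alone was called, against 7.16% of all probe sets called lower and 10.5% higher, and Emcn alone did not overlap, against 14.6%. From P21 to P56, 7 genes were called lower (Emcn, Cd34, Eng, Cd93, Ptprb, Tek and Erg), against 34.3% of all probe sets called lower and 22.1% higher, and the arrays of the same 7 genes did not overlap, against 33.6%. Cdh5, Robo4 and Ramp2 were not called. The last count was 3 rather than 7 with array medians set to 0, when 22.3% of all probe sets were called lower and 49.9% higher. In that setting the shares lower and higher were 9.86% and 16.2% for P15 against P7 and 10.1% and 8.53% for P21 against P15. The steps span 7, 8, 6 and 35 days, and the median changes of the 10 genes were −2.13, −0.10, −0.039 and −0.38.

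**Figure D2:**
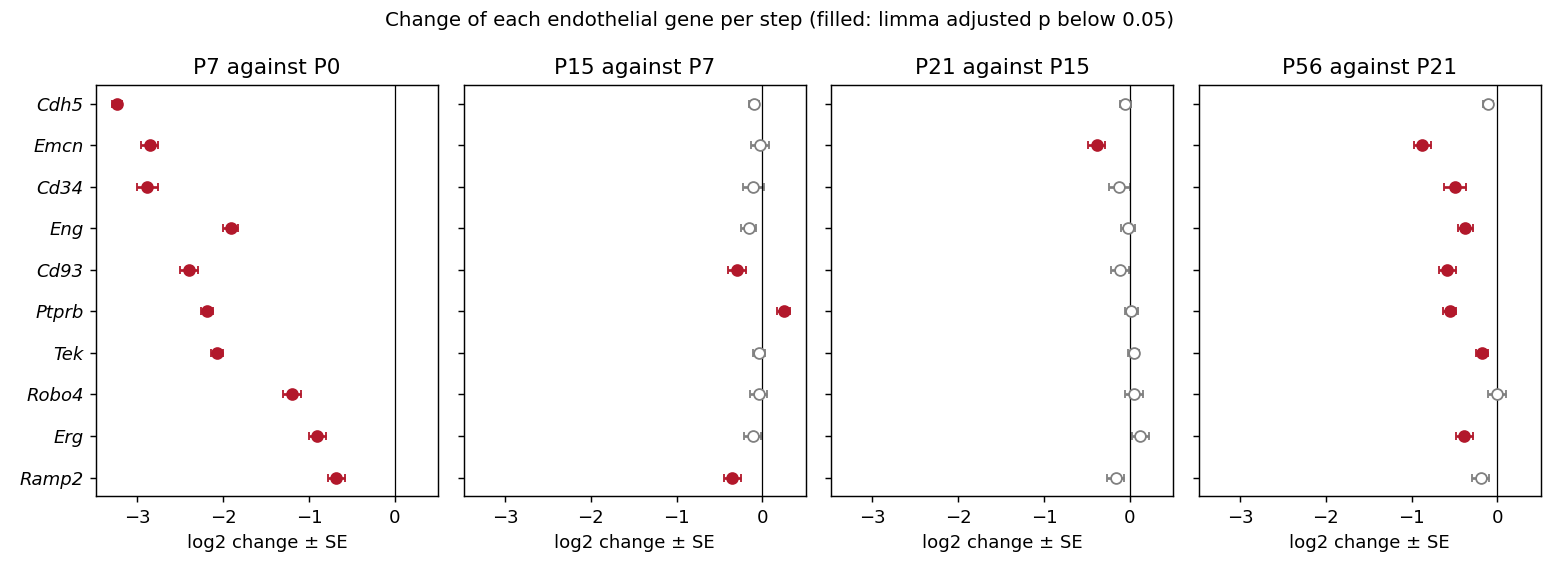
Log2 change (horizontal axis, with its SE from the fit) of each endothelial gene (vertical axis) in the 4 steps between neighbouring ages. Filled points passed the test; all 10 genes are filled for P7 against P0, 3 for P15 against P7, 1 for P21 against P15 and 7 for P56 against P21.

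The first step was larger than the last in all 10 genes by the test of their difference, a contrast of P7 minus P0 against P56 minus P21. That contrast was called lower for 25.7% of all probe sets and higher for 35%, or for 37.9% and 29.3% with array medians set to 0. The difference ran from −3.13 for Cdh5 (SE 0.086, adjusted p 1.00e-14) to −0.49 for Ramp2 (SE 0.14, adjusted p 0.0060). For Erg it was −0.52 (adjusted p 0.0042) and was no longer called with quantile normalization (−0.30, adjusted p 0.0521). As a share of the log2 change from P0 to P56, the first week held a median of 78.6%, with 48.8% for Ramp2, 68.9% for Emcn, 92.4% for Cdh5 and 99.6% for Robo4. The difference between genes in these shares was not tested. A gene whose later levels lie near the floor of the array, such as Tek (91.9%), cannot show a later fall in full. The shares also depend on how the arrays are scaled, since Robo4 was called higher at P56 than at P7 with array medians set to 0.

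Over the whole series the 10 genes were lower at P56 than at P0, against 35.3% of all probe sets called lower and 40.1% higher. Changes were −4.15 for Emcn, −3.61 for Cd34, −3.50 for Cdh5, −3.40 for Cd93, −2.48 for Ptprb, −2.47 for Eng, −2.26 for Tek, −1.40 for Ramp2, −1.29 for Erg and −1.21 for Robo4. Adjusted p-values ran from 9.93e-18 for Cdh5 to 8.74e-09 for Robo4, and no P56 array overlapped with a P0 array in any of the 10 genes, against 35.4% of all probe sets in this direction. With array medians set to 0 all 10 genes stayed called, between −0.88 for Robo4 and −3.82 for Emcn, and 26.3% of all probe sets were called lower and 61.7% higher. From P7 to P56, 9 of the 10 genes were called lower, against 34.2% of all probe sets called lower and 25.4% higher, with a median of −0.47. The arrays of the same 9 genes did not overlap, against 35.8%. Setting array medians to 0 left 5 called lower and Robo4 called higher, against 21.8% of all probe sets lower and 55.6% higher in that setting. Cdh5, Ptprb, Tek and Erg were the 4 genes no longer called lower. By the moderated F-test all 10 genes differed between ages, as did 81.6% of all probe sets.

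Partners of these genes in their pathways gave a less uniform picture. As a reference for the P7 counts of all lists below, 28.5% of all probe sets were called lower at P7 and 33.6% higher. Of the VEGF genes, 6 of 10 measured were called lower at P7 and 1 was called higher. Kdr, the main receptor of VEGF-A, had P0 arrays at 8.16, 8.75 and 8.42 and P7 arrays at 6.47, 6.40 and 6.44, a change of −2.01 (SE 0.13, adjusted p 2.09e-10). Flt1, the decoy-like receptor, changed by −1.70 and the co-receptor Nrp1, which neurons carry as well, by −3.01. The ligand Vegfa had a mean of 9.76 at P0 and 9.68 at P7 and was not called (−0.075, adjusted p 0.311), except with quantile normalization (−0.21, adjusted p 0.0059).

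In angiopoietin signalling, 5 of 8 other genes fell and 1 rose between P0 and P7. Tie1, the receptor that pairs with TIE2, fell by 1.54 (SE 0.076, adjusted p 6.38e-12), and Angpt2, the context-dependent ligand of sprouting vessels, fell by 0.86. Angpt1, the activating ligand made by mural cells and others, was higher at P7 by 0.38 (SE 0.11, adjusted p 0.0076). At P56 Angpt1 was lower than at P0 by −0.27 (adjusted p 0.0410). That call ended with quantile normalization (−0.18, adjusted p 0.247), without P0 replicate 1 (−0.26, adjusted p 0.0895), P0 replicate 2 (−0.23, adjusted p 0.118), P56 replicate 1 (−0.17, adjusted p 0.200) or P56 replicate 2 (−0.19, adjusted p 0.174), and the change turned to 0.057 with array medians set to 0.

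Ramp2's receptor partner Calcrl fell with it. Its P0 arrays read 8.16, 7.90 and 8.22 and its P7 arrays 6.80, 6.62 and 6.59, a change of −1.42 (SE 0.10, adjusted p 9.81e-10). The paralog Ramp1 fell by 0.34, and Ramp3 was not called (−0.12, adjusted p 0.401). Adm, the adrenomedullin ligand, lay below the lower quartile on all arrays of P0, P7 and P56 and was not called (−0.021). Of the 7 measured genes of this list, 3 were called lower at P7, against 28.5% of all probe sets.

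Around endoglin, 8 of 17 genes of the list were lower at P7 and 6 were higher, against 28.5% and 33.6% of all probe sets. The count of higher genes was near the share of all probe sets. The median change was −0.010, and 3 genes were not called. The receptor gene Acvrl1, which encodes ALK1, fell by 0.39 (adjusted p 0.0027), and Bmpr2 fell by 0.65. Tgfb1, a ligand of the wider family, rose by 2.70 (SE 0.072). At P56 against P0, Acvrl1 was at −0.13 and not called, with the sign turned by quantile normalization (0.097) or array medians set to 0 (0.19).

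Among partners of VE-cadherin at the junction, 8 of 11 genes were lower at P7 and 2 were higher. Ctnnd1, which encodes p120-catenin, fell by 1.13 (SE 0.084, adjusted p 1.48e-09). Ctnnb1, encoding β-catenin, changed by −0.16 with a borderline call (adjusted p 0.0488) that ended with array medians set to 0 (−0.098, adjusted p 0.214) or a replicate block (adjusted p 0.0607). It also ended without any 1 of the P0, P7 or P15 arrays, P21 replicate 1 or P21 replicate 2, with adjusted p-values from 0.0530 to 0.154. Ccm2, a scaffold of the cerebral cavernous malformation complex that is not restricted to endothelium, rose by 1.76 (SE 0.078). Catenins are made by most cell types.

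Roundabout and slit genes other than Robo4 include strongly neuronal ones. Between P0 and P7, 5 of 7 fell and 1 rose. Robo1 fell by 3.28 (SE 0.080), Robo2 by 0.68 and the ligand Slit2 by 1.41, while Unc5b, a netrin receptor reported to bind Robo4, rose by 1.00 (SE 0.099, adjusted p 7.80e-08).

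**Figure D3:**
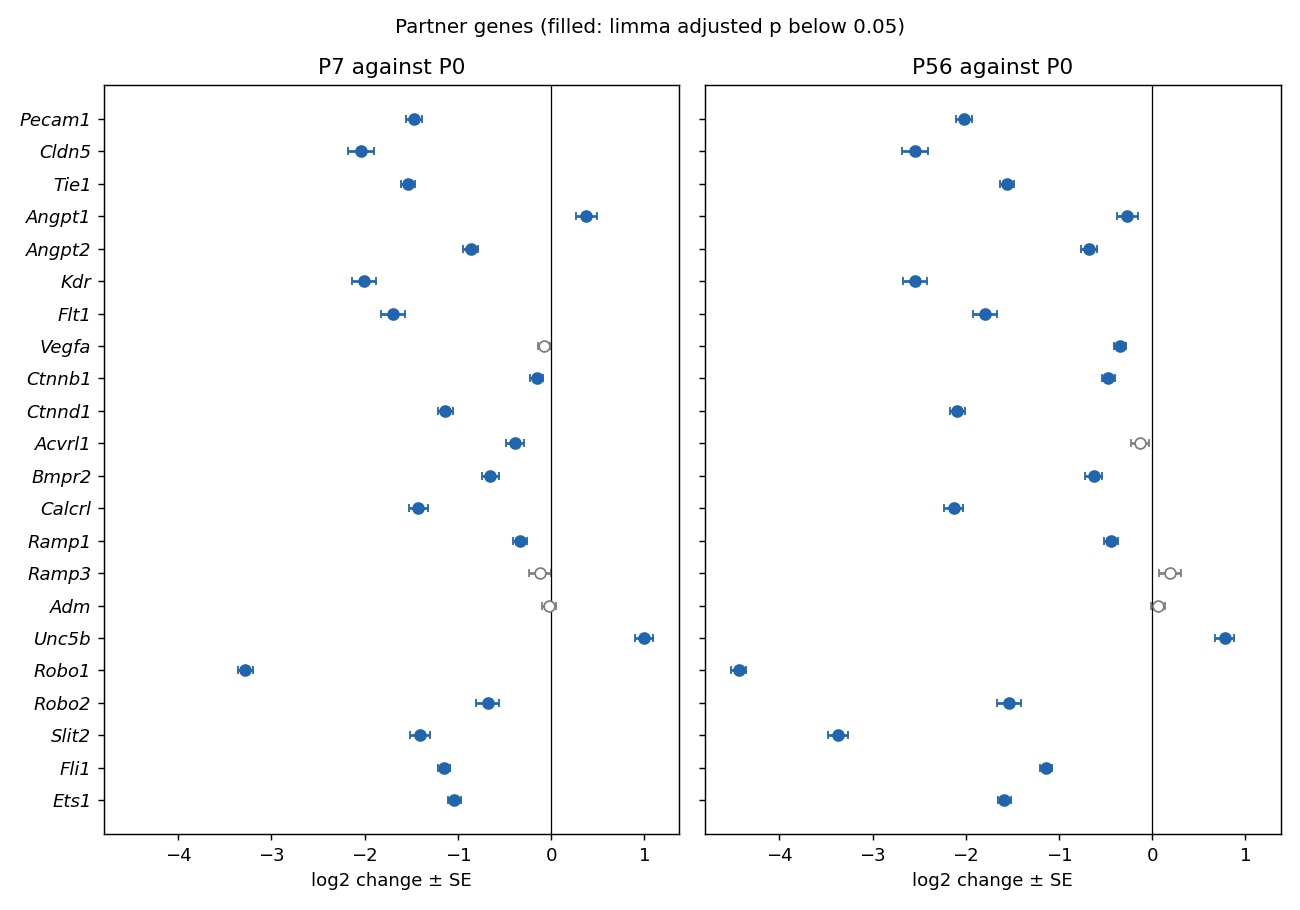
Log2 change with its SE (horizontal axis) of 22 partner genes (vertical axis) for P7 against P0 and for P56 against P0, 3 arrays per age. Filled points passed the test; Pecam1, Cldn5, Tie1, Kdr, Flt1 and Calcrl fall in both panels, Unc5b lies above 0 in both, and Vegfa, Ramp3 and Adm are open for P7 against P0.

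ETS and other transcription factors of endothelium were lower at P7 in 14 of 20 cases and higher in 5. The 6 ETS genes of the list split evenly. Fli1 fell by 1.15 (SE 0.064, adjusted p 3.32e-11), Elk3 by 1.09 and Ets1 by 1.04, while Ets2 rose by 1.47 (SE 0.087, adjusted p 8.05e-11), Etv6 by 1.08 and Etv2 by 0.27. The call of Etv2 was lost without P7 replicate 3 (0.20, adjusted p 0.0579). Of the other factors, Gata2 fell by 2.18. Fli1 was called higher at P56 than at P21 (0.46, adjusted p 9.66e-06); Erg changed by −0.39 in that step, and the difference between these genes was not tested. Lmo2, a LIM-only cofactor known from blood and vessel development, rose by 2.16 (SE 0.062).

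The other 58 measured endothelial genes mostly moved in the direction of the 10. Some, such as Kdr, Tie1, Rasip1 and Sox18, were also counted in the lists above. Of the 58 genes, 44 were called lower at P7 and 5 higher, and the median change was −0.92. At P56 against P0, 45 were lower, 5 higher and 8 not called. Pecam1, the platelet endothelial adhesion molecule, fell by 1.47 in the first week (SE 0.088, adjusted p 9.33e-11), and Cldn5, the main claudin of brain tight junctions, changed by −2.04 (SE 0.14, adjusted p 6.08e-10). Among its carrier genes, named after their values were seen, the lysolipid carrier Mfsd2a was at −2.44, the amino acid carrier Slc7a5 at −1.36 and the glucose carrier Slc2a1 at −1.30, whereas the monocarboxylate carrier Slc16a1 rose by 1.01 (SE 0.096, adjusted p 4.67e-08). Adgrf5, an adhesion G protein-coupled receptor gene, was at −2.73 and lay below the lower quartile on all P7 arrays, as did 9 of the 58 genes in all. Fn1, which other cell types also make, fell by 3.40. The 5 genes called higher, named after their values were seen, were Plvap (0.41), Apln (0.27), Foxq1 (0.77), Degs2 (0.26) and Slc16a1. The call of Degs2 was lost without P0 replicate 2 (0.24, adjusted p 0.0751) or P7 replicate 3 (0.21, adjusted p 0.102). The counts of genes called higher at P56 rose from 5 to 9 with quantile normalization and to 12 with array medians set to 0, and fell to 3 without P0 replicate 2.

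Markers of other cells of the tissue moved in the same week. Of 20 mural cell genes, 13 were lower at P7 and 1 was higher, with a median of −0.76, and the list mean went from 8.01 to 8.04 on the P0 arrays to 7.26 to 7.29 on the P7 arrays. Pdgfrb (−1.93), Vtn (−2.34), Rgs5 (−0.86) and Acta2 (−1.74) were among them. Of 17 microglial genes, which bear on Cd93, 13 were lower and 1 was higher, and the list mean went from 7.55 to 7.56 at P0 to 6.46 to 6.52 at P7, with C1qb at −2.91. Of 17 genes of meningeal fibroblasts, which bear on Cd34, 16 were lower and the list mean went from 9.07 to 9.10 down to 7.55 to 7.59, with Slc6a13 at −3.03. Of 5 measured red blood cell genes 2 were lower, with Alas2 at −1.99. Astrocyte and Bergmann glia genes were lower in 9 of 14 cases and higher in 4, and granule cell genes were lower in 4 of 13 and higher in 7. Over all probe sets 28.5% were called lower and 33.6% higher, and the granule cell count of lower genes was near that share. Zic1 was counted in both the mural and the granule cell lists and was not called. At P7, 1 mural, 3 microglial, 1 meningeal and 3 red blood cell genes lay below the lower quartile on all arrays, and those 3 red blood cell genes did so at P0 as well.

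The Purkinje cell list moved in the opposite direction over the same step. Its mean went from 9.18 to 9.22 on the P0 arrays to 12.52 to 12.53 on the P7 arrays and lay at 12.62 to 12.65 at P56. Pcp2, whose promoter drives the tag, was at 8.62, 8.49 and 8.50 at P0 and at 13.18, 13.15 and 13.16 at P7, a change of 4.63 (SE 0.059). Between P21 and P56, 7 of the 10 endothelial genes were called lower, against 34.3% of all probe sets, and fewer with array medians set to 0. In that step Pcp2 rose by 0.49 (limma adjusted p 2.10e-06). The amount of tagged ribosome at each age was not measured, and the part of the other cell types and of Pcp2 in the fall of the endothelial genes was not tested.

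**Figure D4:**
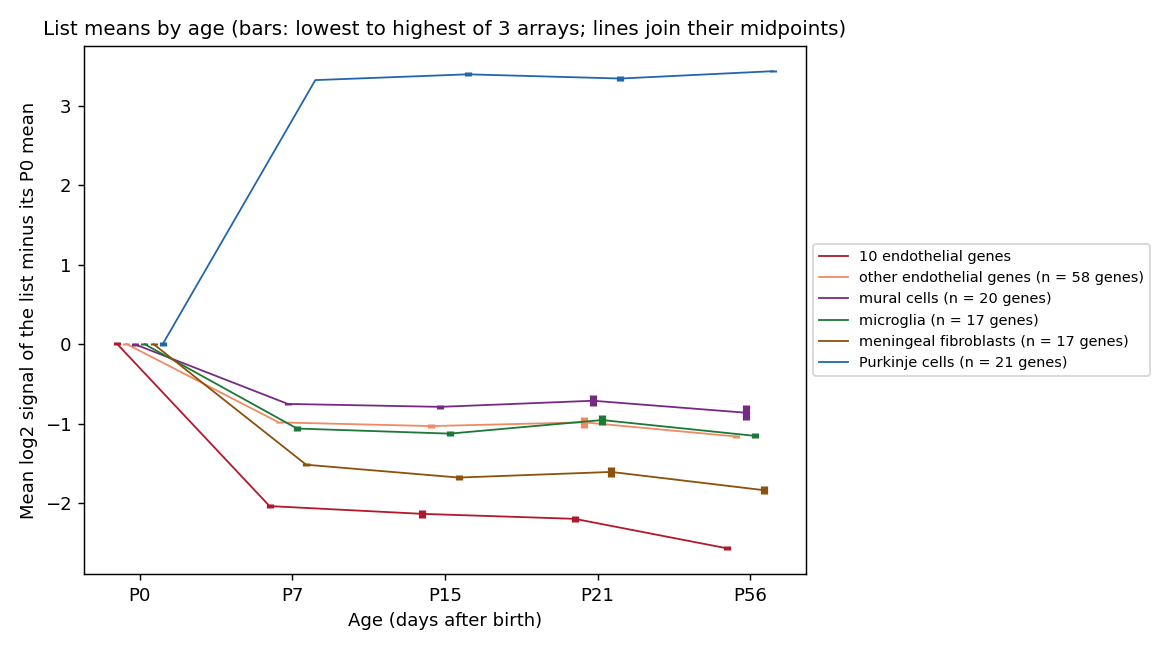
Mean log2 signal of each gene list minus its own mean over the P0 arrays (vertical axis) by age (horizontal axis). Bars span the lowest to the highest of 3 arrays and lines join their midpoints; the Purkinje cell list rises after P0 whereas the 10 endothelial genes and the other 4 lists fall.

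The likeness of single genes to the shared course was measured as the root mean square difference between 5 centred age means and the mean centred profile of the 10 genes. That profile was 1.79 at P0, −0.25 at P7, −0.35 at P15, −0.41 at P21 and −0.79 at P56. Eng lay closest among the 10, at 0.044 log2 units, followed by Tek at 0.13 and Ptprb at 0.15, and Emcn lay farthest at 0.51. Among all other named genes the closest was Kdr at 0.033, followed by Greb1l at 0.053, Prkab1 at 0.055, Ctsc at 0.060, Ebf4 at 0.062, Cybrd1 at 0.062, Fam216b at 0.068, Ptn at 0.072, Gcfc2 at 0.073 and the pericyte receptor gene Pdgfrb at 0.074. Of these 10 genes, Kdr and Pdgfrb are in the lists of vascular cells used here. By the same measure Emcn ranked 1630 and Cdh5 1311 among 19500 genes. The age means were centred but not scaled, so the size of a fall counts in this measure as well as its course.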

How the data were processed

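Per the labels, cerebella of Tg(Pcp2-L10a-Egfp) mice were pooled, tagged ribosomes were purified, and amplified, biotin-labelled RNA was hybridised to 15 arrays. The values are log2 signals per probe set, deposited by the authors as processed values. The submitters' processing notes name Affymetrix Power Tools. Neither log base nor algorithm is given in the sources used here. Base 2 was assumed because values lie between 3.15 and 14.1. Symbols came from GEO's platform annotation, which gave 1 symbol to 20996 of 22092 probe sets, several to 91 and did not list 1005.

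From these values, limma 3.58.1 in R 4.3.3 fitted a mean per age to all 15 arrays with no covariate, no filter and no rescaling (10 residual and 6.5 prior degrees of freedom). Tests were two-sided. An exact permutation test of 3 against 3 arrays cannot go below 0.1, so the adjusted p-values rest on the pooled spread. The file gives no depth, and precision is limited by the number of arrays. The value table gives no scan date or batch, so no batch was tested.

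The members and gene lists were chosen with earlier results of these data known, so the list counts are descriptions. Named were the 10 genes, a fixed set of partners, up to 4 called genes per list with large changes from P0 to P56, and the 10 most similar genes. Not every gene that this rule names is printed. The fit was repeated without each array in turn, with 1 probe set per gene or the mean over a gene's probe sets, without the dimmest 50% of probe sets, with replicate number as a block, with a prior that was trended and robust, with weights per array, with array medians at 0 and after quantile normalization. Figures were drawn with matplotlib 3.10.9.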

Additional observations from a re-analysis of the deposited data

How the results depend on the processing

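The fall of the 10 genes from P0 to P7 and to P56 kept its direction and its call in all alternatives run for them. Removing the dimmest 50% of probe sets left only Eng and Ramp2 to test, so by construction the counts were 2 lower for P7 against P0, P56 against P0 and P56 against P7, 2 with a larger first than last step and 2 differing between any ages. In that setting 1 was lower and 0 higher for P15 against P7, 0 lower for P21 against P15 and 1 lower for P56 against P21. With array medians set to 0, the counts were 1 lower for P15 against P7, 3 lower for P56 against P21, and 5 lower and 1 higher for P56 against P7. For P15 against P7, the count lower was also 1 with quantile normalization, a trended and robust prior or a replicate block. Leaving out each array in turn gave 0 to 2 lower and 0 to 1 higher for P15 against P7, 0 to 1 lower for P21 against P15, 6 to 7 lower for P56 against P21 and 8 to 9 lower for P56 against P7. The other counts did not move without any array. Of 30 correlations of same-numbered deviations, 5 were over 0.1 (median −0.0030), in a range from −0.31 to 0.45. The highest were between P15 and P21, at 0.33 for replicate 1 and 0.45 for replicate 2, against 0.016 for replicate 3. A link between same-numbered arrays of these ages is therefore not excluded, and its source was not tested. The replicate block changed no other call of the 10 genes.

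Directions reversed in these cases, and the cause was not tested. With array medians set to 0, P15 against P7 turned to 0.040 for Emcn, 0.028 for Tek and 0.023 for Robo4, P21 against P15 to −0.022 for Ptprb, and P56 against P21 to 0.12 for Cdh5, 0.051 for Tek, 0.23 for Robo4 and 0.040 for Ramp2. P56 against P7 turned to 0.082 for Tek and 0.26 for Robo4, P7 against P0 to 0.038 for Adm, and P56 against P0 to 0.057 for Angpt1 and 0.19 for Acvrl1. With quantile normalization, Ptprb was at −0.017 for P21 against P15, Robo4 at 0.0001 and Ramp2 at 0.081 for P56 against P21, Adm at 0.0089, Ramp3 at 0.012 and Adm2 at 0.027 for P7 against P0, and Acvrl1 at 0.097 and Adm at −0.0025 for P56 against P0. With array weights, Robo4 was at 0.038 for P56 against P21. Leaving out each array in turn, Robo4 ranged from −0.12 to 0.043 for P15 against P7, from −0.044 to 0.12 for P21 against P15, from −0.11 to 0.070 for P56 against P21 and from −0.11 to 0.052 for P56 against P7. In the same way Eng ranged from −0.075 to 0.053 for P21 against P15, and Adm2 from −0.22 to 0.023 for P7 against P0. For P56 against P0, Slc16a1 (0.044) ranged from −0.085 to 0.14, and Apln (−0.21) turned to 0.13 with quantile normalization and 0.12 with array medians set to 0. Signals below the lower quartile limit what can be read of Tek from P7 and of Emcn and Cd93 at P56.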

Other observations

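The spread between arrays of an age was widest at P56 for 8 of the 10 endothelial genes. The same was not counted over all probe sets, so this count does not set these genes apart. The SD at P56 was 0.34 for Cd34, 0.25 for Ramp2, 0.23 for Cd93 and 0.22 for Emcn, against 0.077, 0.085, 0.081 and 0.12 at P0. The 3 P56 arrays did not order the genes alike. P56 replicate 1 was highest for Cd34 (6.57) and Ramp2 (8.14) but lowest for Emcn (5.18) and Eng (7.17).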
